A study of Mus musculus with 8 samples.

Results

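The genes of eIF4F, the complex that brings the ribosome to the capped end of an mRNA, were followed through 8 RNA-seq libraries of mouse E14 ESCs. They were chosen by name as Eif4a2 and the genes of the complex, its paralogs, its cofactors and its best known inhibitor, which gave 10 genes of the 55335 in the count table. The 10 are Eif4a1, Eif4a2, Eif4a3, Eif4b, Eif4e, Eif4g1, Eif4g2, Eif4g3, Eif4h and Eif4ebp1, and all 10 were among the 16504 genes that passed the filter on low counts. The cells were E14 (E14Tg2A), a line of mouse embryonic stem cells (ESCs), infected with a lentivirus carrying a control shRNA (labelled NG, genotype negative control) or shRNAs against Sox2, Hnrnpk or Cdk9, with 2 libraries in each of the 4 groups. By the study's methods all cells had been grown in serum medium with LIF and the inhibitors CHIR99021 and PD0325901 and had gone through puromycin selection before RNA was taken, so the controls share the virus and the drug with the other groups (KD, knockdown). Which of the shRNAs against a gene each library carried was not given in the sources used here. Nor do the sources say whether the duplicates, which the study calls biological, were infected separately, so the tests measure the spread between these libraries.

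In eIF4F, eIF4E binds the cap, eIF4G is the scaffold that holds the other subunits and contacts eIF3 on the small ribosomal subunit, and eIF4A is the RNA helicase that unwinds the leader. eIF4B and eIF4H stimulate the helicase, and the protein of Eif4ebp1 (4E-BP1) holds eIF4E away from eIF4G until mTORC1 phosphorylates it. Eif4a1 and Eif4a2 encode close paralogs of the helicase. Eif4a3, in spite of its name, encodes the helicase of the exon junction complex, which marks spliced mRNA and takes part in nonsense-mediated decay.

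Of the 10 genes, Eif4g3 alone was differentially expressed (DE) between another group and control, where DE means that the adjusted p was below 0.05 and the log2FC beyond 0.6 in either direction. It was 3.78-fold higher in Cdk9-KD, and all 6 libraries of the other groups lay above both controls. How many of all tested genes did so was not counted. Eif4ebp1 differed between Sox2-KD, where it was lowest, and Cdk9-KD, where it was highest. Both calls depended on the fit. That of Eif4g3 between Cdk9-KD and control was lost in 4 of 8 other settings of the fit, and that of Eif4ebp1 in 2 of 8. Leaving out a library also changed them. Eif4a2 itself was not DE in any comparison, and the gene total cannot separate its spliced forms.

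The 8 libraries held between 16709201 and 17719366 counts, and the 10 genes took between 0.676% and 0.818% of them. The targeted mRNAs were checked first. Sox2 was lower in both Sox2-KD libraries (320.4 and 283.5 CPM, that is, counts scaled to a common library size, against 412.4 and 530.3 in control; log2FC -0.64, adjusted p = 0.0479). Cdk9 was at 73.08 and 53.17 CPM in Cdk9-KD and at 108.7 and 129.1 in control (log2FC -0.91, adjusted p = 0.0985). Hnrnpk was at 697.1 CPM in replicate 1 and 1144 in replicate 2 of the shHnrnpk-labelled libraries, against 1094 and 1131 in control, so that only replicate 1 lay below the controls. These libraries are therefore named by their label (shHnrnpk, written hnRNPK-KD in the plots), not as a knockdown. The 8 ESC markers summed to 7090 to 7250 CPM in control and to 6110 to 6620 in Sox2-KD, and none was at 0 in all libraries. In Sox2-KD the sum of the 7 trophectoderm markers was 156 to 284 CPM, against 45.6 to 58.3 in control, and that of the 7 primitive endoderm markers 43.1 to 62.5, against 3.83 to 5.10. The trophectoderm sum was also above both controls in the shHnrnpk-labelled libraries (65 to 113 CPM) and in Cdk9-KD (69.6 to 72.4, with 1 marker, Eomes, DE and higher). In those groups the ESC sum was 7070 to 7330 and 7190 to 8370 CPM and the primitive endoderm sum 2.97 to 4.69 and 4.85 to 5.96. Over all 8 libraries the 7 fibroblast markers summed to 2.25 to 6.19 CPM and the 5 neural markers to 47 to 83.5. The part of these markers in the results was not tested for any group. In whole cultures, fewer cells of a type and less RNA per cell cannot be told apart.

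Eif4a2 is the member for which the study followed splicing, and its sequence shows what a gene-level count leaves out. The gene lies on the plus strand of chromosome 16 (GRCm38, 23107444 to 23114136), and GENCODE vM21 lists 25 transcripts, of which 6 are protein coding, 15 retain an intron and 3 are annotated as targets of nonsense-mediated decay. One of these 3, Eif4a2-204, holds a 107-base exon at chr16:23112351-23112457 that the coding transcript Eif4a2-203 skips. The exon is the 11th of 12 in Eif4a2-204, and it occurs with exactly these ends in 2 of the annotated transcripts. The junctions of both forms are printed because they carry the difference that the counts cannot resolve. Each line begins with the last 30 bases of the shared upstream exon (chr16:23111867-23111896, plus strand) and continues into the exon that follows it, with a stop codon in capitals.
Eif4a2-204, exon included: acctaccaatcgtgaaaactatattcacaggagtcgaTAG
Eif4a2-203, exon skipped: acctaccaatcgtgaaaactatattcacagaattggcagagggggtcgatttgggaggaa

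The included exon reaches a TAG stop codon, in the frame of the coding sequence, at its bases 23112358 to 23112360. This stop lies 97 bases before the last exon junction of Eif4a2-204, and an exon with such a premature termination codon (PTC) is called a poison exon. In Eif4a2-203 the reading frame goes on through the shown bases of the next exon (23113167 to 23113196). The primer pair with which the study told the forms apart by RT-PCR is printed because its ends frame the same exon.
Forward primer, with its outer ends at 23111592 and 23111832 on either side of an intron: GGCCCGTGGGATTGACG
Reverse primer, on chr16:23113178-23113199, minus strand: CCTTTCCTCCCAAATCGACCCC

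Placed on the annotated transcripts, the pair gives a product of 221 bases from Eif4a2-204 and of 114 bases from Eif4a2-203, and the difference is the 107-base exon. Another length, 930 bases, comes from the coding transcript Eif4a2-202. All of these transcripts add to the same Eif4a2 count, so none of the values that follow bears on the share of the exon. The gene Rfc4, on the other strand, overlaps Eif4a2 over 194 bases and held 529 to 849 counts, and without a stated strand setting the reads of that stretch cannot be assigned.

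The helicase Eif4a2 was measured at 1272 and 900.3 CPM in control, 938 and 844 in Sox2-KD, 1124 and 825.3 in the shHnrnpk-labelled libraries, and 917.8 and 1087 in Cdk9-KD. Its 2 controls were the highest and the sixth highest of the 8 libraries, and only Sox2-KD replicate 2 and shHnrnpk replicate 2 fell below their range. The mean was 1086 ± 262.6 CPM in control and 891 ± 66.49 in Sox2-KD (SD, n = 2), a log2FC of -0.29 with a 95% confidence interval from -0.73 to 0.16 (SE 0.20, adjusted p = 0.487). Against control, the log2FC was -0.16 in the shHnrnpk-labelled libraries (interval -0.60 to 0.29, adjusted p = 0.913) and -0.12 in Cdk9-KD (interval -0.56 to 0.33, adjusted p = 0.902). These intervals hold both decreases and increases. The values turned on single libraries. Without control replicate 1 the log2FC was -0.03 in Sox2-KD, 0.09 in the shHnrnpk-labelled libraries and 0.12 in Cdk9-KD. Without control replicate 2 it was -0.52, -0.40 and -0.37. For the shHnrnpk-labelled libraries, leaving out their own replicate 1 or replicate 2 moved it about as widely, to -0.41 and 0.03.

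Eif4a1, the main eIF4A helicase of growing cells, stood at 2326 and 1975 CPM in control, 1973 and 1649 in Sox2-KD, 2420 and 2056 in the shHnrnpk-labelled libraries and 2014 and 1711 in Cdk9-KD. Both Sox2-KD libraries were below both controls, narrowly in the nearer pair, and the other groups overlapped control. The log2FC of -0.25 in Sox2-KD was within the spread (SE 0.16, adjusted p = 0.451), as was that of -0.21 in Cdk9-KD (adjusted p = 0.709). Replicate 1 exceeded replicate 2 by 0.23 to 0.26 on the log2 scale in every one of the 4 groups, a gap close to the size of these differences. Eif4a-ps4, a processed pseudogene that matches an Eif4a1 transcript at 99.918% of 1218 aligned bases, held 558 to 922 counts where Eif4a1 held 28896 to 41314. How reads shared by the gene and its copies were counted was not given in the sources used here, and all 4 copies together held 1.88% to 2.39% of the Eif4a1 count.

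The balance of the paralogs was read within each library, where library size drops out. Eif4a2 made up 35.3% and 31.3% of the sum of Eif4a1 and Eif4a2 counts in control, 32.2% and 33.9% in Sox2-KD, 31.7% and 28.6% in the shHnrnpk-labelled libraries, and 31.3% and 38.9% in Cdk9-KD. The 95% Wilson intervals, which cover counting error only, were narrow, from 28.2% to 29.0% for the lowest library and from 38.4% to 39.3% for the highest. The 2 Cdk9-KD libraries thus held both the highest share and one equal to that of control replicate 2, and their spread (35.1% ± 5.37, SD, n = 2) covered the control mean of 33.3% ± 2.83. All 3 other groups overlapped the control range. Per base of annotated exon, the Eif4a2 level was 0.444 and 0.370 of the Eif4a1 level in control and between 0.326 and 0.516 in the 6 other libraries.

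Eif4a3, the exon junction complex helicase, ran from 146.4 to 191.3 CPM over the 8 libraries, with 147.6 and 191.3 in the controls themselves. The controls enclosed all other libraries but Cdk9-KD replicate 2, the lowest, and the log2FC of -0.05, -0.03 and -0.05 in Sox2-KD, the shHnrnpk-labelled libraries and Cdk9-KD had adjusted p values of 0.906, 0.982 and 0.963. Its near-identical copy Gm8994 and the 2 others held 0.417% to 4.92% of the Eif4a3 count. Since the counting of shared reads was not given, these shares do not bound the uncertainty of the gene's own level.

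**Figure D1:**
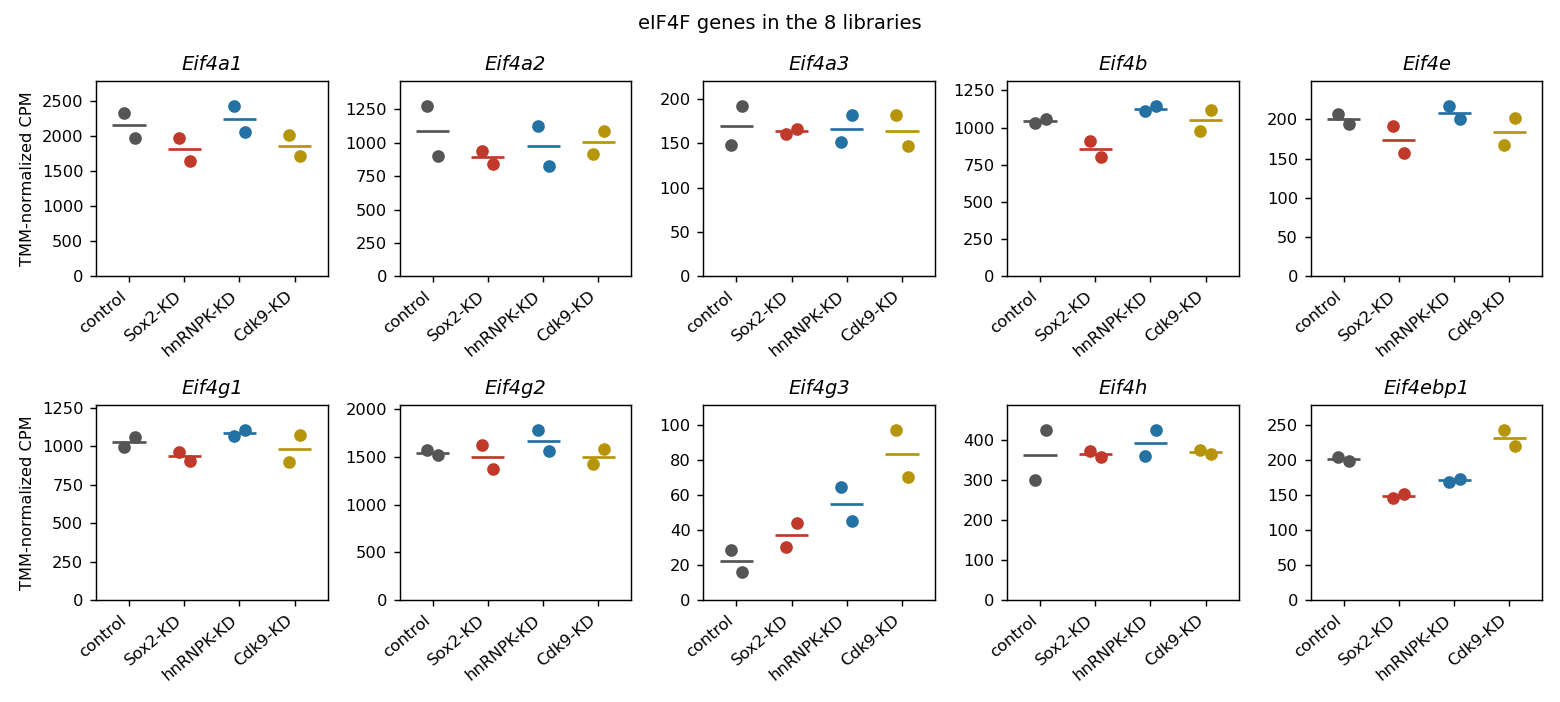
TMM-normalized CPM of the 10 genes in each of the 8 libraries, with 1 dot a library (replicate 1 left, replicate 2 right), 1 panel a gene, the groups along the x axis and a bar at the mean of 2. All 6 libraries of the other groups lie above both controls for Eif4g3 (30.44 to 96.8 against 15.75 and 28.38 CPM), the 4 groups do not overlap for Eif4ebp1, and the 2 controls of Eif4a2 lie apart, at 1272 and 900.3 CPM. The shares of all tested genes with the patterns of Eif4g3 and Eif4ebp1 were not counted.

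Among the scaffolds, Eif4g3 was the member that moved. Its product, eIF4G3 (also called eIF4GII), can take the place of eIF4G1 in the complex. The gene spans 215.5 kb of chromosome 4 (GRCm38, 137993022 to 138208508, plus strand), the longest span of the 10. Eif4g3 was measured at 28.38 and 15.75 CPM in control, 30.44 and 44.11 in Sox2-KD, 64.2 and 44.99 in the shHnrnpk-labelled libraries, and 96.8 and 70.14 in Cdk9-KD. The controls were the 2 lowest libraries and the Cdk9-KD libraries the 2 highest. The lowest Sox2-KD library was only just above the higher control, and a Sox2-KD and a shHnrnpk-labelled library (replicate 2 of each) were next to each other, at 44.11 and 44.99 CPM. These values rest on 275 to 1657 counts a library.

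The mean rose from 22.07 ± 8.93 CPM in control to 83.47 ± 18.9 in Cdk9-KD (SD, n = 2), a log2FC of 1.92 (SE 0.30, interval 1.25 to 2.59, adjusted p = 0.0479). Of the 16504 genes tested, 0.0545% were DE and higher in Cdk9-KD and 0.0848% DE and lower, 23 genes in all, of which Eif4g3 had the largest p. The call is at the edge of the threshold: the adjusted p ran from 0.063 to 0.294 when any 1 of the 4 libraries compared was left out, and from 3.05e-08 to 0.0595 over the other settings. Leaving out a library moved the log2FC between 1.53 and 2.37, so the direction stood in each of these fits while the call did not.

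In the shHnrnpk-labelled libraries the Eif4g3 mean was 54.59 ± 13.6 CPM (SD, n = 2), a log2FC of 1.31 (SE 0.30, interval 0.64 to 1.97), with an unadjusted p of 0.00127 and an adjusted p of 0.358 in edgeR's quasi-likelihood test. No gene was DE in this comparison (0% higher and 0% lower), although 1325 of the genes tested had an unadjusted p under 0.05, and DESeq2 called 83 genes, Eif4g3 among them with an adjusted p of 0.00269. Without replicate 2, in which Hnrnpk itself was not lower, the log2FC of Eif4g3 came to 1.52, and to 1.02 without replicate 1. The replicates differed by 0.51 on the log2 scale, against 0.84 in control and 0.46 in Cdk9-KD, with replicate 1 the higher in all of these. In Sox2-KD the mean was 37.28 ± 9.67 CPM, a log2FC of 0.76 (SE 0.30, interval 0.09 to 1.42, adjusted p = 0.199). The 3 comparisons share the same 2 control libraries, so a low Eif4g3 value in those controls would enter all of them.

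Comparisons between the other groups do not use the control levels. Eif4g3 was lower in Sox2-KD than in Cdk9-KD by a log2FC of -1.16 (SE 0.30, interval -1.82 to -0.51, adjusted p = 0.0396), and the groups did not overlap. Without any 1 of those 4 libraries the adjusted p was between 0.0566 and 0.191. Between Cdk9-KD and the shHnrnpk-labelled libraries the log2FC was 0.61 (interval -0.03 to 1.26), which did not pass the test.

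Relative to the other eIF4G genes the pattern was the same. Eif4g3 gave 1.09% and 0.609% of the counts of Eif4g1, Eif4g2 and Eif4g3 together in control, 1.16% and 1.90% in Sox2-KD, 2.21% and 1.66% in the shHnrnpk-labelled libraries, and 4.01% and 2.57% in Cdk9-KD. The highest control (95% Wilson interval 1% to 1.19%) and the lowest Sox2-KD library (1.07% to 1.26%) overlapped within counting error, and the intervals of the 2 Cdk9-KD libraries (3.83% to 4.21% and 2.43% to 2.72%) lay above those of all other libraries. Even there, Eif4g3 stayed a small part of the scaffold mRNA.

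**Figure D2:**
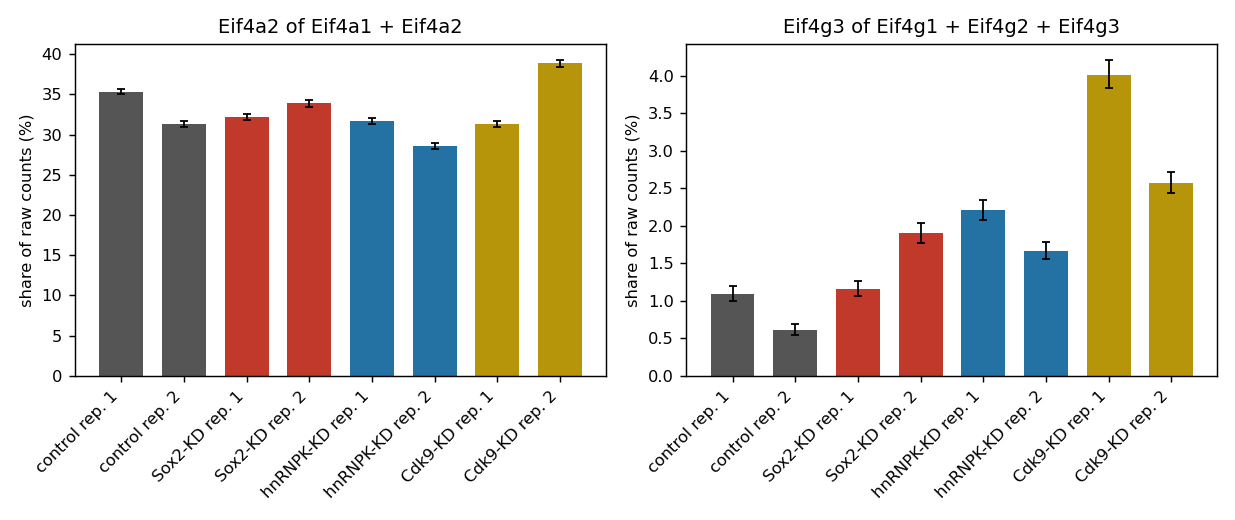
Share of raw counts (%, y axis) of Eif4a2 in the sum of Eif4a1 and Eif4a2 (left) and of Eif4g3 in the sum of the 3 eIF4G genes (right) for each library, with 95% Wilson intervals that cover counting error only. The Eif4a2 share ran from 28.6% to 38.9%, with the widest gap between replicates in Cdk9-KD (31.3% and 38.9%). The Eif4g3 share was highest in the 2 Cdk9-KD libraries, at 4.01% and 2.57%.

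Eif4g3 had no near-identical copy, and no other gene's exon overlapped its own. The antisense gene 1700095J12Rik overlaps Eif4g3 outside its exons and had 0 to 1 counts in each library. The annotation gives 15 transcripts, of which 9 are coding, and the gene-level count cannot say which of them rose.

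Eif4g1, the main scaffold, was far steadier. It stood at 991.9 and 1057 CPM in control, 963.3 and 905.6 in Sox2-KD, 1065 and 1104 in the shHnrnpk-labelled libraries, and 894.1 and 1074 in Cdk9-KD. Sox2-KD lay below both controls and the shHnrnpk-labelled libraries above both, but by log2FC of only -0.13 (adjusted p = 0.662) and 0.08 (adjusted p = 0.945), inside the spread. Eif4g2, also known as DAP5, lacks the eIF4E-binding part and serves translation that does not use eIF4E. Its values ran from 1369 to 1780 CPM, with 1577 and 1515 in control, and its log2FC of -0.05, 0.11 and -0.04 in Sox2-KD, the shHnrnpk-labelled libraries and Cdk9-KD had intervals within -0.37 and 0.43.

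Eif4e encodes the cap-binding subunit, whose amount and availability are held to limit cap-dependent translation. It was measured at 206.4 and 194.3 CPM in control, 191.1 and 156.5 in Sox2-KD, 216.3 and 200.8 in the shHnrnpk-labelled libraries and 166.7 and 201.4 in Cdk9-KD. Sox2-KD was below control in both libraries, and the other groups overlapped control. The log2FC in Sox2-KD was -0.21 (SE 0.16, interval -0.55 to 0.14, adjusted p = 0.520).

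Eif4ebp1, which encodes the inhibitor 4E-BP1, had replicates that lay close together. It was measured at 204.6 and 198.3 CPM in control, 145.8 and 151.5 in Sox2-KD, 168.4 and 172.7 in the shHnrnpk-labelled libraries, and 242.3 and 219.9 in Cdk9-KD. The 4 groups did not overlap at any point, in the order Sox2-KD, shHnrnpk-labelled, control and Cdk9-KD from low to high. Sox2-KD and Cdk9-KD thus lay on opposite sides of control, and the difference between them was tested directly: a log2FC of -0.64 (SE 0.13, interval -0.93 to -0.35, adjusted p = 0.0162), or 0.643 of the Cdk9-KD level. The share of all tested genes with 4 separate groups was not counted. Of them, 25.2% lay below both controls in Sox2-KD, 18.7% below in the shHnrnpk-labelled libraries and 21.2% above in Cdk9-KD.

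Against control, neither side passed the test. The log2FC was -0.44 in Sox2-KD (SE 0.13, interval -0.73 to -0.15, adjusted p = 0.0918), -0.24 in the shHnrnpk-labelled libraries (interval -0.53 to 0.05, adjusted p = 0.705) and 0.20 in Cdk9-KD (interval -0.09 to 0.49, adjusted p = 0.650). Without any 1 of the 4 libraries, the log2FC between Sox2-KD and Cdk9-KD ran from -0.71 to -0.55 and the adjusted p from 0.0315 to 0.109, with the call lost in 3 of the 4 fits. It was also lost with library totals as the scale (log2FC -0.56, adjusted p = 0.0284) and with only the 4 libraries in the fit (adjusted p = 0.0542). Its log2FC in Sox2-KD against control was from -0.47 to -0.42 on leaving out a library and from -0.48 to -0.37 over the other settings, past the threshold in none of them.

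Eif4b, the cofactor that S6 kinase phosphorylates, was measured at 1031 and 1061 CPM in control, 910.2 and 804.3 in Sox2-KD, 1115 and 1142 in the shHnrnpk-labelled libraries, and 978.8 and 1118 in Cdk9-KD. Sox2-KD lay below all other libraries and the shHnrnpk-labelled libraries above both controls. The log2FC was -0.29 in Sox2-KD (SE 0.14, interval -0.59 to 0.02, adjusted p = 0.288), and between Sox2-KD and the shHnrnpk-labelled libraries it was -0.40 (adjusted p = 0.123), so neither difference passed the test. In Cdk9-KD it was 0.00, and its sign turned with the scaling. Eif4h, the smaller relative of eIF4B, was at 299.5 and 423.3 CPM in control, and those 2 values enclosed the 6 other libraries (355.6 to 423 CPM), with log2FC of 0.01, 0.11 and 0.03.

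**Figure D3:**
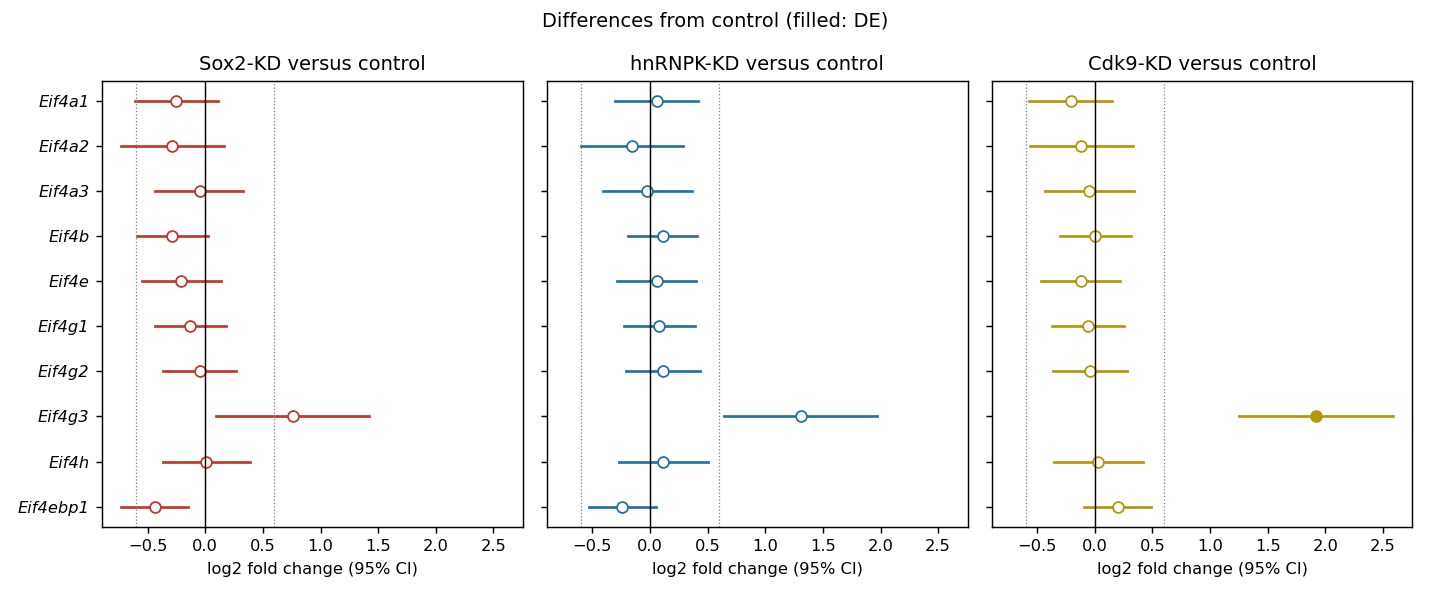
Log2 fold change from control (x axis) with its 95% confidence interval for the 10 genes in Sox2-KD, the shHnrnpk-labelled libraries and Cdk9-KD, from the fit over all genes. Filled circles are DE, open circles are not, dotted lines mark a log2FC of 0.6 in either direction, and the filled circle is Eif4g3 in Cdk9-KD, at 1.92, while the interval of Eif4ebp1 in Sox2-KD lies wholly below 0.

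Counted over the list, Sox2-KD had 0 of 10 genes DE, against 2.63% of all tested genes that were DE and higher and 1.69% that were DE and lower. In Sox2-KD, 5 of the 10 (Eif4a1, Eif4b, Eif4e, Eif4g1 and Eif4ebp1) had both libraries below both controls and 1 (Eif4g3) had both above, where 25.2% and 28.2% of all tested genes did so. The median log2FC of the 10 was -0.17, and that of all tested genes 0.02. The 5 of 10 exceed the background share, but the genes were few and no test was made of it.

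In the shHnrnpk-labelled libraries, 3 of the 10 (Eif4b, Eif4g1 and Eif4g3) lay above both controls and 1 (Eif4ebp1) below, where 20.4% and 18.7% of all genes did. The median log2FC was 0.07, against 0.02 for all genes. In Cdk9-KD, 1 of 10 was DE (Eif4g3, higher, a call at the edge of the threshold), against 0.0545% of all genes DE and higher and 0.0848% DE and lower. There 2 of the 10 (Eif4g3 and Eif4ebp1) lay above both controls, where 21.2% of all genes did, and 0 below, where 18.0% did. The median was -0.04 against 0.02.

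Between these groups, 0 of 10 genes were DE for Sox2-KD against the shHnrnpk-labelled libraries (5.90% of all genes), 2 of 10 for Sox2-KD against Cdk9-KD (7.33%) and 0 of 10 for Cdk9-KD against the shHnrnpk-labelled libraries (0%). At an unadjusted p under 0.05 the 2 comparisons with no DE member held 1 member each, and 3518 (with Sox2-KD) and 943 (with Cdk9-KD) of all genes. A test of any difference among the 4 groups called 2 of the 10, Eif4g3 (adjusted p = 0.0162) and Eif4ebp1 (adjusted p = 0.0495), where 6.06% of all genes were called. The call of Eif4ebp1 was at the threshold, and the number called was 1 in each alternative fit of this test.

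The order of the levels was read per length, as CPM divided by the kilobases of annotated exon, averaged over the 2 controls. Eif4a1 was highest, at 496.2 ± 57.4 CPM per kb (SD, n = 2), followed by Eif4b (234.2 ± 4.76), Eif4a2 (203.4 ± 49.2), Eif4g2 (152.1 ± 4.34), Eif4g1 (140.3 ± 6.33), Eif4ebp1 (91.75 ± 2.03), Eif4a3 (79.86 ± 14.6), Eif4h (65.1 ± 15.8), Eif4e (33.35 ± 1.43) and Eif4g3 (1.995 ± 0.807). The control ranges of Eif4b and Eif4a2 overlapped, as did those of Eif4a3 and Eif4h, and all other neighbours were apart. Eif4a1 was first, Eif4e ninth and Eif4g3 last in each of the 8 libraries, so even in Cdk9-KD, where it reached 8.749 CPM per kb, Eif4g3 was the least abundant scaffold.

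These lengths count every annotated exonic base, retained introns included, which lowers the level of genes with many such transcripts. With the length of the transcript that has the longest coding sequence (1.23 kb for Eif4a2, against 5.34 kb of exonic bases), Eif4a2 stood second, at 885.1 ± 214 CPM per kb and clear of Eif4b, and Eif4h moved ahead of Eif4a3 and Eif4ebp1. Eif4a1 stayed first and Eif4g3 last. The Eif4a2 level as a share of the Eif4a1 level in control was 0.407 by the first length and 0.725 by the second, so it depends on the choice of length. It also depends on how reads shared by Eif4a1 and its copies were counted, which is not known here.

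**Figure D4:**
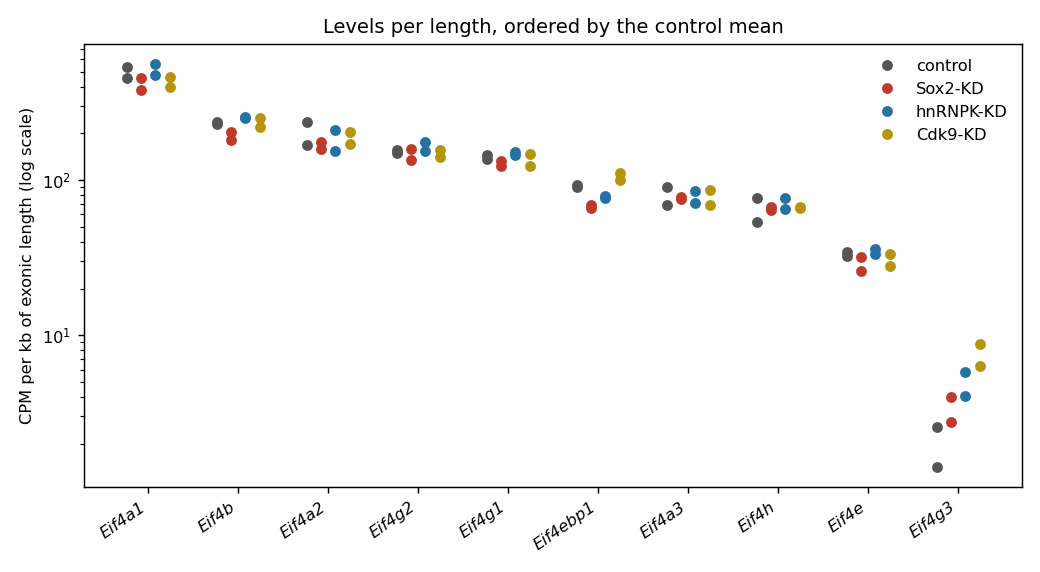
CPM per kilobase of annotated exonic length (y axis, log scale) of the 10 genes in every library, ordered along the x axis by the control mean and coloured by group. Eif4a1 lies at the top in all 8 libraries (380.5 to 558.4) and Eif4g3 at the bottom (1.424 to 8.749), and only Eif4g3 has its groups spread over more than 3-fold.

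The genes whose pattern was most like that of Eif4a2 were found over the 8 libraries among 12522 genes by Pearson's r of log2 CPM. They were Zdhhc24 (r = 0.987), which encodes a palmitoyltransferase family protein, Gm43314 (0.954), Zfp874b (0.948), Ubac1 (0.927) and D3Ertd751e (0.923). Zdhhc24 followed it closely, from 14.75 CPM in control replicate 1 down to 10.36 in replicate 2 of the shHnrnpk-labelled libraries, the libraries in which Eif4a2 was also highest and lowest. With 8 libraries and this many genes, high values of r are to be found for any gene, and the points share library preparation and depth. Among the other members r with Eif4a2 was 0.61 for Eif4e, 0.57 for Eif4g2 and 0.53 for Eif4a1, but -0.80 for Eif4a3 and -0.77 for Eif4h. The 2 last genes were thus low where Eif4a2 was high, chiefly between replicates: control replicate 1 held the highest Eif4a2 value (1272 CPM), the lowest Eif4h value (299.5) and the second lowest Eif4a3 value (147.6).

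The wider machinery of initiation was covered by 77 genes in 6 lists, all of which passed the filter on low counts. In Sox2-KD 1 of the 77 was DE and lower and 0 DE and higher, and in the shHnrnpk-labelled libraries and in Cdk9-KD 0 were DE in either direction. The 1 gene was Bzw2, a regulator of start codon choice that competes with eIF5, at 187.9 and 159.7 CPM in control and 120.1 and 93.82 in Sox2-KD (log2FC -0.70, SE 0.16, adjusted p = 0.0393). The share of 1 in 77 is near the background of 1.69%.

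In Sox2-KD, 59 of the 77 genes had a negative log2FC, with a median of -0.14 against 0.02 for all genes. The 14 eIF3 subunits, which bridge eIF4G and the ribosome, were all on the negative side, by -0.44 to -0.12, with none DE. Eif3m was at 238 and 230.8 CPM in control and 180.8 and 164 in Sox2-KD (log2FC -0.44, adjusted p = 0.0975), and Eif3e at 373.8 and 382 against 298.9 and 273 (log2FC -0.40, adjusted p = 0.178). The list of eIF2 and eIF2B, which bring the initiator tRNA and recharge eIF2 with GTP, also held Eif2ak1 to Eif2ak4, Eif2a and Eif2d. In it 12 of 14 were negative with a median of -0.17. Eif2a, which is not a subunit gene of eIF2 or eIF2B, was at -0.36 (adjusted p = 0.245). The 13 genes of start codon choice and subunit joining had a median of -0.14. The scale bears on these medians and on the counts of negative genes. With library totals as the scale, the median of all genes in Sox2-KD moved too, by 0.07. The lean was not confined to Sox2-KD. In Cdk9-KD, 12 of 14 eIF3 subunits (median -0.09) and 12 of 14 genes of the eIF2 list (median -0.14) were negative. In the shHnrnpk-labelled libraries 6 of 14 and 7 of 14 were, with medians of 0.03 and -0.01.

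The list of the mTORC1 pathway, which controls 4E-BP1, did not lean the same way in Sox2-KD, with a median of 0.11 over 15 genes and 6 negative. It holds both activators and inhibitors of mTORC1, so this median gives no direction for the activity of the pathway. Eef2k, the kinase that slows elongation and is held down by mTORC1 signalling, was at 27.7 and 30.94 CPM in control and 12.69 and 20.2 in Sox2-KD (log2FC -0.83, SE 0.23, adjusted p = 0.0746). Akt1s1, which encodes PRAS40, an inhibitory component of mTORC1, was at 27.03 and 34.54 CPM in control and 42.75 and 46.4 in Sox2-KD (log2FC 0.53, adjusted p = 0.274). Neither passed the test.

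The 15 accessory factors of eIF4F, among them other cap-binding proteins, 4E-BPs and the poly(A)-binding proteins, had medians of -0.04, 0.07 and 0.06 in Sox2-KD, the shHnrnpk-labelled libraries and Cdk9-KD. The widest differences there were of genes near the limit of detection, Eif4ebp3 at 0.91 in the shHnrnpk-labelled libraries (means of 1.021 and 0.5384 CPM, adjusted p = 0.823) and Eif4e3 at 0.51 in Cdk9-KD (adjusted p = 0.857). Of the exon junction complex partners of Eif4a3, 5 of 6 were negative in Sox2-KD with a median of -0.30. Rbm8a, which encodes Y14, was at 191.2 and 226.3 CPM in control and 165.1 and 157.6 in Sox2-KD (log2FC -0.37, adjusted p = 0.168), and the low gene Magohb at -1.19 in Cdk9-KD (means of 0.3812 and 0.8816 CPM, adjusted p = 0.515). In Cdk9-KD, Eif2s3x, a subunit of eIF2, was at 206 and 270.1 CPM against 339.4 and 316.2 in control (log2FC -0.46, adjusted p = 0.378), and the median of all 77 was -0.04.

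**Figure D5:**
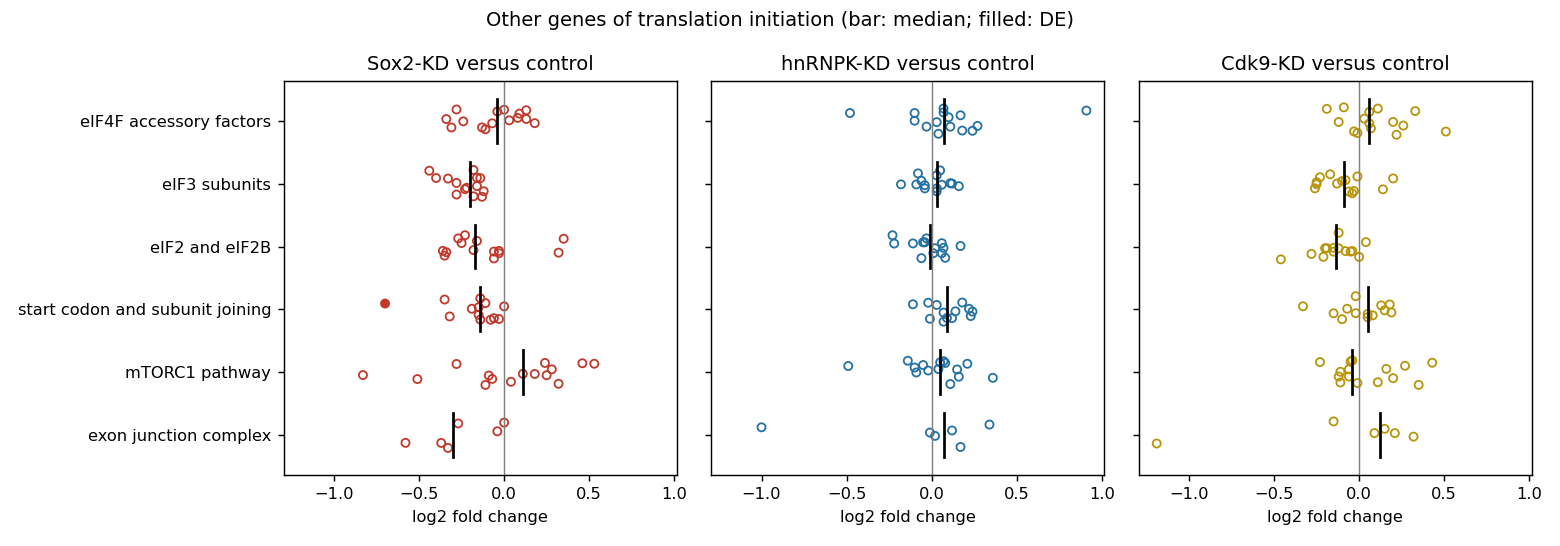
Log2 fold change from control (x axis) of the 77 genes in 6 lists of translation initiation (y axis), 1 circle a gene, in Sox2-KD, the shHnrnpk-labelled libraries and Cdk9-KD, with a bar at the median of each list. Circles of genes that are DE are filled, which is 1 gene, Bzw2 in Sox2-KD at -0.70, and all 14 eIF3 subunits lie below 0 in Sox2-KD.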

How the data were processed

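Read pairs were trimmed (Trimmomatic, by the study's methods) and mapped with STAR to mouse GENCODE vM23 by the authors. The STAR release was 2.7.9a by the submitters' processing notes, while the study's methods name another. The authors deposited raw counts for each gene and library (featureCounts 2.0.1, by the same notes), with no normalization or pooling. Whether counting used strand, and how multiply mapped reads were handled, is not given in the sources used here. The 8 count columns were matched to groups and replicates by name. Of 55335 genes, 16504 passed filterByExpr in edgeR 4.0.16 (R 4.3.3; minimum count 10, minimum total count 15). The quasi-likelihood test, with TMM normalization and a group term, was fitted to all 8 libraries, with Benjamini-Hochberg adjustment over all tested genes. CPM are TMM-normalized.

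The 10 genes, the pathway and marker lists and the naming rule were chosen with earlier results of these data known. Named were the 10 genes, the 3 targets, in each list the DE genes or otherwise the 2 with the largest absolute log2FC, and the 5 genes most like Eif4a2. Gene models came from GENCODE vM21 (GRCm38), near-identical copies (at least 90% identity over 200 bases) from BLAST 2.17.0. The fit was tested on simulated counts. DESeq2 1.42.0, a likelihood ratio test, other scalings and filters, a replicate block and the removal of each library were alternatives.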

Additional observations from a re-analysis of the deposited data

How the results depend on the processing

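With 2 libraries a group, leaving out 1 library changed several calls. Eif4g3 had the fewest counts of the members, 275 to 1657 a library. Of the recomputed log2FC of the members, 331 kept their direction and their side of the threshold, 18 lost a call, 2 gained one and 33 turned sign. The cause was not tested in any case. Eif4g3 in Cdk9-KD lost its call, leaving 0 members DE, with library totals, with at least 10 counts in every library, with the replicate block and with only the 4 libraries compared (adjusted p 0.0549, 0.0537, 0.0595 and 0.0505), and 0 to 0 members were DE when 1 library was left out. It kept it with DESeq2 size factors, with no filter, in the likelihood ratio test and in DESeq2, and the last 2 gave 1 member DE in the shHnrnpk-labelled libraries, also Eif4g3. Sox2-KD against Cdk9-KD had 0 members DE with library totals, 1 with only the 4 libraries and 0 to 1 without 1 library. The test of any difference called 1 member under each other scaling, either filter and the replicate block, and 1 to 1 without 1 library.

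Over all genes, the likelihood ratio test called 1350 genes in Sox2-KD, 87 in the shHnrnpk-labelled libraries, 279 in Cdk9-KD, 1690 in Sox2-KD against the shHnrnpk-labelled libraries, 1869 in Sox2-KD against Cdk9-KD and 67 in Cdk9-KD against the shHnrnpk-labelled libraries. DESeq2 called 83 in the shHnrnpk-labelled libraries, 222 in Cdk9-KD and 56 between these. With the replicate block, 15 were called in Cdk9-KD. With no filter, 1 was called in the shHnrnpk-labelled libraries. Without 1 library, the counts ran from 144 to 343 in Sox2-KD, from 0 to 32 in Cdk9-KD, from 90 to 875 in Sox2-KD against the shHnrnpk-labelled libraries and from 337 to 863 in Sox2-KD against Cdk9-KD, and reached 6 in Cdk9-KD against the shHnrnpk-labelled libraries and 1 in the shHnrnpk-labelled libraries.

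The sign turned for members close to 0. In Cdk9-KD, Eif4b was at -0.02 with DESeq2 size factors, in DESeq2 and with at least 10 counts in every library, at -0.01 with no filter and at 0 with library totals or only the 4 libraries. In Sox2-KD, Eif4a3 and Eif4g2 were both at 0.02 with library totals, and Eif4h was at -0.03 with no filter and -0.01 with only the 4 libraries. Without 1 library, log2FC in Sox2-KD ran from -0.25 to 0.14 for Eif4a3, from -0.19 to 0.07 for Eif4g2 and from -0.24 to 0.27 for Eif4h. In the shHnrnpk-labelled libraries they ran from -0.07 to 0.16 for Eif4a1, from -0.41 to 0.09 for Eif4a2, from -0.22 to 0.16 for Eif4a3, from -0.01 to 0.09 for Eif4e and from -0.14 to 0.37 for Eif4h. In Cdk9-KD they ran from -0.37 to 0.12 for Eif4a2, from -0.26 to 0.13 for Eif4a3, from -0.10 to 0.06 for Eif4b, from -0.20 to 0.04 for Eif4g1, from -0.12 to 0 for Eif4g2 and from -0.23 to 0.28 for Eif4h. The Eif4a2 level as a share of Eif4a1 in control, 0.407 per exonic base, was 0.725 by the coding transcript and 0.501 with no length, alternatives chosen after seeing the data. Same-numbered libraries deviated from their group means with correlations of -0.22 to 0.21 between groups, so the numbers do not establish a pairing.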
